A study of Mus musculus and Homo sapiens with 12 samples.

Results

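AluY elements are the youngest of the main lineages of Alu, the most numerous short interspersed element of the human genome. The elements described here were all repeats of the hg38 table with the family Alu and a subfamily name that begins with AluY, 143718 of 3919868 elements in that table and of 7078039 elements in the human and mouse tables of the series together. They fell into 25 subfamilies, and 41791 of them had a count in at least 1 library. The libraries came from the human chronic myeloid leukaemia line K-562, either wild type (WT) or with the gene for TET2, an enzyme that oxidizes methylated cytosine, knocked out (TET2 KO). Each group had 3 libraries, named WT 1 to WT 3 and KO 1 to KO 3, and all were treated alike: chromatin-associated RNA (caRNA), found in the chromatin fraction of the nucleus, was precipitated with an antibody against 5-methylcytosine (m5C) and sequenced. The study names a gift from another laboratory as the source of both lines and also a culture collection for WT K-562 cells. It describes its genome-wide data as biological replicates, and whether the KO line is 1 clone is not given in the sources used here. TET2 RNA was not measured in the table, which holds repeats alone. The cell-line field of the KO labels reads K563, whereas their titles name K-562.

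An Alu element is a non-coding repeat, built from a pair of arms that derive from the RNA of the signal recognition particle. Its left arm carries an internal promoter of RNA polymerase III, but most Alu sequence in nuclear RNA is carried by introns and other parts of RNA polymerase II transcripts. Alu RNA has no protein of its own and is copied into new genomic sites by the machinery of L1 elements. The oldest lineage is AluJ, AluS followed, and AluY is the lineage of nearly all recent insertions, with AluYa5 and AluYb8 as its most active human branches. CpG sites are lost from old copies by mutation, so young copies hold more of them.

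The 3 lineages differed in sequence, which is given as a description and not as a test of their labels. Among elements of at least 280 bp, called full-length here, the median number of CpG sites was 14 in 121970 AluY, 7 in 575611 AluS and 3 in 166725 AluJ elements. The 7 letters GATCGAG, searched on the element strand, were in 55.4% of the AluY, 4.79% of the AluS and 1.68% of the AluJ elements. The letters GTTCGAG were in 0.765%, 25.4% and 11.5%. Full-length AluYa5 and AluYb8 elements had a median of 23 CpG sites each.

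AluY held a smaller share of the repeat counts of m5C-bound RNA in the KO libraries than in the WT libraries. AluY held 5.41%, 4.83% and 4.09% of the repeat counts in WT 1 to WT 3 and 2.95%, 2.43% and 3.12% in KO 1 to KO 3. All KO libraries lay below all WT libraries. The means were 4.78% ± 0.663 (SD, n = 3) in WT and 2.83% ± 0.362 (SD, n = 3) in KO, a log2 difference of −0.75 (exact permutation test, two-sided, p = 0.1, the smallest that 3 against 3 libraries can give, and 0.15 after Benjamini–Hochberg adjustment over 6 such comparisons). The tables hold no input RNA and no spike-in, so less AluY RNA on chromatin and less m5C on the same RNA cannot be told apart. A share also depends on the counts of the other repeats. The AluY counts themselves were 35189, 24064 and 22916 in WT 1 to WT 3 and 24259, 17370 and 25848 in KO 1 to KO 3, which overlap. Total counts moved with genotype as well. The WT libraries had 498145 to 649905 and the KO libraries 715023 to 827341. The part of this difference in the results was not tested.

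The older Alu lineages gave a measure of AluY within each library that does not depend on the library total. The ratio of AluY to AluS counts was 0.521, 0.472 and 0.440 in WT 1 to WT 3 and 0.284, 0.266 and 0.359 in KO 1 to KO 3, with no overlap and a log2 difference of −0.67 (exact permutation p = 0.1, adjusted 0.15). The ratio of AluY to AluJ counts was 1.46, 1.55 and 1.29 in WT and 0.697, 0.723 and 0.825 in KO, with no overlap and a log2 difference of −0.94 (exact permutation p = 0.1, adjusted 0.15). AluY thus held more counts than AluJ in every WT library and fewer in every KO library. Per kilobase of element, in CPM (library-scaled counts, after TMM normalization), the AluY level was 1.21 ± 0.0718 in WT and 0.669 ± 0.0990 in KO (SD, n = 3 each). The AluS level was 0.516 ± 0.0144 and 0.450 ± 0.0308, and the AluJ level was 0.470 ± 0.0306 and 0.496 ± 0.0553. AluY was the lineage with the highest level per kilobase in WT, and in KO its libraries were still above those of both older lineages.

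**Figure D1:**
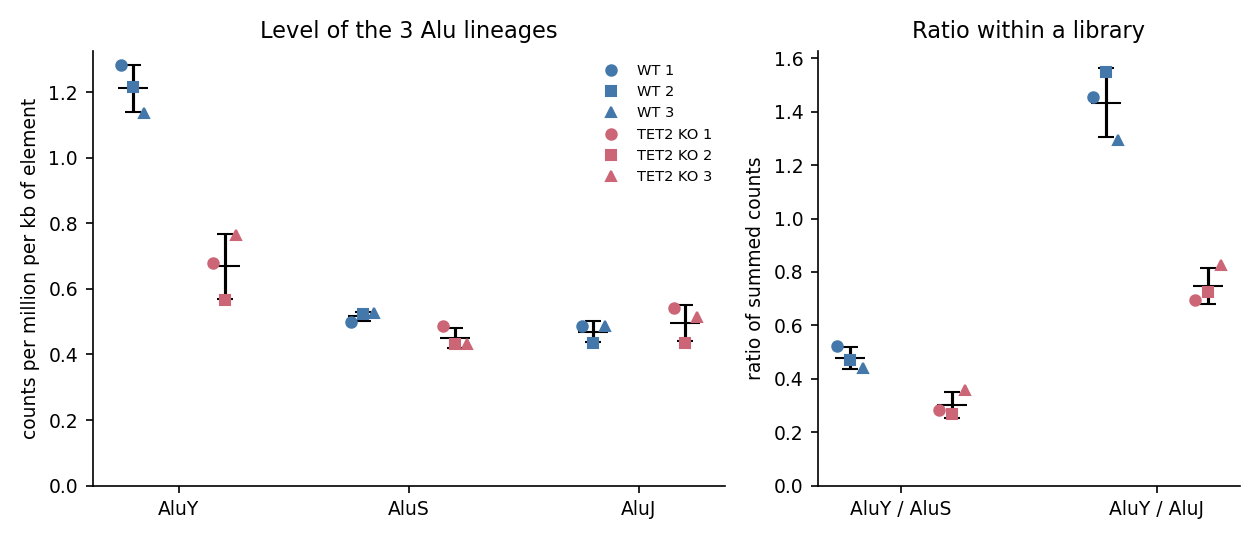
Left, level of AluY, AluS and AluJ in CPM per kilobase of element in each of the 3 WT and 3 TET2 KO libraries; right, ratio of AluY to AluS and to AluJ counts within each library. Points are libraries, and black bars are the mean ± SD. AluY falls between 1.14 and 1.28 in WT and between 0.566 and 0.764 in KO, and both ratios separate the groups.

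The number of detected elements and the counts per detected element were compared next. AluY made up 13.9%, 13.5% and 12.5% of all elements with counts in WT 1 to WT 3 and 12.7%, 11.0% and 12.8% in KO 1 to KO 3, ranges that overlap. The mean count of an AluY element with counts was 2.58, 2.30 and 2.41 in WT and 1.87, 1.81 and 2.08 in KO, without overlap. For AluS the same mean was 3.59 ± 0.132 in WT and 4.28 ± 0.341 in KO (SD, n = 3 each). These means depend on depth, which was higher in KO.

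AluY and AluS elements were also split by their counts summed over the 6 libraries, and the AluY to AluS ratio was taken within each class. The classes were set by counts of the same libraries, so their values are a description, with no test. Among elements with under 5 counts, 38308 of the AluY elements, the ratio was 0.648, 0.625 and 0.521 in WT and 0.550, 0.488 and 0.536 in KO, which overlap. Between 5 and 50 counts, with 2981 AluY elements, it was 0.821, 0.907 and 0.798 in WT and 0.525, 0.440 and 0.638 in KO. Between 50 and 300 counts, with 453 AluY elements, it was 0.362 ± 0.0692 in WT and 0.254 ± 0.0591 in KO (SD, n = 3 each), and the libraries overlap. The 49 AluY elements with 300 or more counts had ratios of 0.461, 0.228 and 0.454 in WT and 0.0762, 0.125 and 0.0869 in KO. These 49 elements held 22.7% ± 10.0 of the AluY counts in WT and 8.53% ± 3.35 in KO (SD, n = 3 each).

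**Figure D2:**
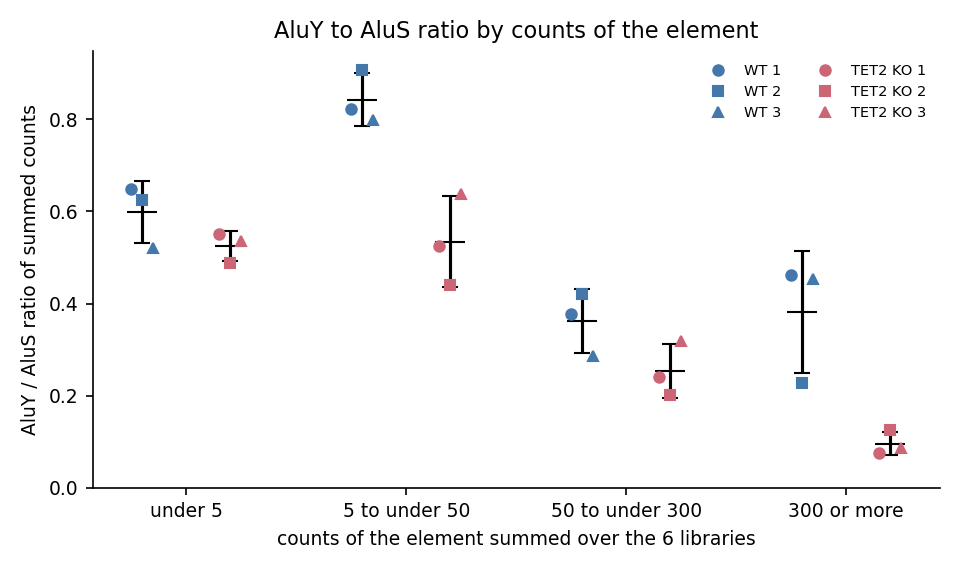
AluY to AluS ratio of counts (vertical axis) within 4 classes of elements set by the counts of the element summed over the 6 libraries (horizontal axis). Points are libraries, and bars are the mean ± SD of 3. The KO points overlap the WT points under 5 counts and between 50 and 300 counts, and lie below all WT points in the other classes.

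Of the 25 AluY subfamilies, 21 passed the filter on low counts and were tested with the edgeR quasi-likelihood test among 573 repeat subfamilies, of which 1.05% were called at an adjusted p under 0.05. The call among the AluY lineage was 1 of 21 and was the subfamily named AluY itself, the largest with 100248 elements. Its level was 28814, 30539 and 27981 CPM in WT 1 to WT 3 and 15115, 13180 and 17672 CPM in KO 1 to KO 3. The groups did not overlap, and it fell by 0.93 ± 0.17 (SE) on the log2 scale (edgeR adjusted p = 0.0400). The call was lost with each of the 6 libraries left out (edgeR adjusted p from 0.0643 to 0.239), with library totals as the scaling (0.0592) and without the 10 AluY elements of highest count (0.140). Without elements that had over 90% of their counts in 1 library, the log2 change was −0.44 (edgeR adjusted p = 0.444).

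AluYa5 was the largest subfamily by counts after AluY. Its level was 5698, 10024 and 4193 CPM in WT and 3187, 1828 and 4869 CPM in KO, ranges that overlap, with a log2 change of −1.01 ± 0.476 (edgeR adjusted p = 0.389). AluYb8, the other branch known for recent insertions, had 5001, 1909 and 1155 CPM in WT and 2051, 2007 and 1958 CPM in KO, with a log2 change of −0.42 ± 0.614 (adjusted p = 0.783). WT 1 alone was high for AluYb8, and without it the change was 0.43. AluYb9, its close relative, had 105, 533 and 993 CPM in WT and 127, 515 and 418 CPM in KO, with a change of −0.62.

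Among the other subfamilies the groups were apart only for AluYk4, with 677, 106 and 307 CPM in WT and 103, 101 and 84.1 CPM in KO (log2 change −1.89 ± 1.03, adjusted p = 0.416). In all, 2 of the 21 had every KO library below every WT library, against 6.63% of all tested subfamilies, and 0 of 21 had every KO library above every WT library, against 10.3%. The fitted changes below 0 were −1.67 for AluYg6, −1.32 for AluYd8, −1.11 for AluYk2, −0.98 for AluYi6, −0.94 for AluYc, −0.85 for AluYm1, −0.82 for AluYk3 and AluYe5 and −0.58 for AluYh7. The fitted changes above 0 were 1.71 for AluYh3, 1.64 for AluYa8, 1.25 for AluYf1, 0.99 for AluYj4, 0.37 for AluYe6, 0.16 for AluYc3 and 0.09 for AluYk11. None of these 16 passed the test or had groups apart.

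Single libraries set several of these values. AluYg6 had 3829 CPM in WT 1 and between 61.5 and 1041 CPM in the other 5 libraries, and AluYh3 had 459 CPM in KO 2 and between 19.6 and 54.1 CPM elsewhere. AluYc had 3558 CPM in WT 3 and between 377 and 1259 CPM elsewhere. Without WT 1 the AluYg6 change was 1.10, without KO 2 the AluYh3 change was −0.94 and without WT 3 the AluYc change was 0.20. The 4 subfamilies that were not tested were AluYk12 with 91.2 counts over the 6 libraries, AluYi6_4d with 54.0, AluYh3a3 with 26.8 and AluYh9 with 4.63.

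Over the 21 AluY subfamilies the fitted log2 change was below 0 for 14, with a median of −0.82. It was below 0 for 11 of 17 tested AluS subfamilies, with a median of −0.15, and for 1 of 4 AluJ subfamilies, with a median of 0.24. Over all 573 tested subfamilies the median was 0.03. Every KO library was below every WT library for 4 of 17 AluS (23.5%), 2 of 21 AluY (9.52%) and 0 of 4 AluJ subfamilies, so this trait was not particular to AluY. Every KO library was above every WT library for 0 AluS, 0 AluY and 1 of 4 AluJ subfamilies. EdgeR called 0 AluS and 0 AluJ subfamilies. Before adjustment, 1 AluY, 2 AluS and 0 AluJ subfamilies were below 0.05, against 79 of all 573. DESeq2 called 2 AluS, 0 AluJ and 1 AluY subfamilies, the last again the one named AluY, in a fit where 10.6% of all tested subfamilies were called.

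Subfamilies with more CpG sites had higher levels per kilobase. In WT, the level per kilobase was 5.78 ± 2.64 CPM for AluYa5 and 3.39 ± 2.57 CPM for AluYb8 (SD, n = 3 each), compared with 0.976 ± 0.0437 CPM for AluY, whose median was 13 CpG sites. Counts were found in 91.1% of AluYa5 and 86.5% of AluYb8 elements and in 26.5% of AluY elements. Over the 21 subfamilies, Spearman's rho between the median CpG count and the WT level per kilobase was 0.79, and between the median CpG count and the log2 change it was −0.18. Subfamilies share the same 6 libraries, and near-identical young copies also share reads, so these are descriptions.

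Over the full-length elements of the whole lineage, the level was higher with more CpG sites except at the lower end. In WT the level per kilobase was 0.970 ± 0.384 CPM in elements with up to 9 CpG sites, 0.628 ± 0.0650 with 10 to 14, 1.26 ± 0.333 with 15 to 19 and 3.21 ± 0.796 with 20 or more (SD, n = 3 each). The KO levels were 0.363 ± 0.0772, 0.410 ± 0.0241, 0.751 ± 0.147 and 1.95 ± 0.358. The classes with 0 to 9, 10 to 14 and 15 to 19 CpG sites had every KO library below every WT library, and in the class with 20 or more KO 3, at 2.34, was above WT 3, at 2.29. The share of full-length AluY counts in elements with over 14 CpG sites was 73.7%, 66.2% and 52.7% in WT and 66.3%, 64.3% and 68.7% in KO, which overlap (log2 difference 0.06, exact permutation p = 0.8, adjusted 0.8). A difference in this share between the genotypes was not detectable.

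The AluY counts were also divided by length and by position. Full-length elements held 88.8%, 91.6% and 84.3% of AluY counts in WT 1 to WT 3 and 94.6%, 93.1% and 93.4% in KO, without overlap (log2 difference 0.09, exact permutation p = 0.1, adjusted 0.15). Without WT 3 the log2 difference was 0.05, and with a minimum of 250 or 300 bp in place of 280 bp the exact p was 0.5. Without elements with over 90% of their counts in 1 library the log2 difference was 0.01 (exact p = 0.3), and on primary chromosomes only, a setting chosen after seeing the data, it was 0.03 (exact p = 0.2). Elements from 100 bp to under 280 bp, which lack part of the repeat, held 11.1%, 8.28% and 15.6% in WT and 5.34%, 5.37% and 6.43% in KO. An AluYc element of 117 bp on chromosome 21, at chr21:22292938-22293054, is among them.

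Introns held most AluY counts. Of the counts on annotated chromosomes, 65.9% ± 2.60 in WT and 60.6% ± 7.38 in KO were in intronic elements and 5.56% ± 3.47 and 4.04% ± 0.343 in exonic ones (SD, n = 3 each). The share inside genes was 72.3%, 68.4% and 73.6% in WT and 56.4%, 70.4% and 67.0% in KO, which overlap (log2 difference −0.15, exact permutation p = 0.2, adjusted 0.24). KO 1 was the lowest library, and KO 3 was also below every WT library. Without KO 1 the log2 difference was −0.06. Within genes, elements on the strand of the gene held 62.9% ± 5.54 of the counts in WT and 55.0% ± 3.22 in KO. The libraries overlapped there, with WT 2 at 57.0% and KO 1 at 57.3%. The strand setting of the counting is not given in the sources used here. Chromosome 16, with 3.32% of the elements, held 13.3% ± 6.06 of AluY counts in WT and 6.67% ± 1.17 in KO (SD, n = 3 each), and the groups overlapped, with WT 2 at 6.94% and KO 2 at 8.02%.

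Single AluY loci were irregular between libraries. Of 41791 AluY elements with counts, 27384 had them in only 1 library and 396 in all 6. Of the 502 with at least 50 counts, 333 (66.3%) had 90% or more of them in 1 library, compared with 71.0% of AluS and 62.5% of AluJ elements chosen alike. In a library, between 61 and 201 AluY elements held 50% of the AluY counts. EdgeR tested 39 AluY loci among 3127 repeat loci, of which 0.0959% were called. It called 0 of the 39, and at an unadjusted threshold of 0.05 there were 2 (5.13%), against 234 of all 3127 tested loci (7.48%). DESeq2 called these 2, in a fit where 5.56% of all tested loci were called. Both had 0 counts in every WT library and passed the filter on low counts through the KO libraries alone. Their p and this call are therefore given as a description. The KO libraries were all below the WT libraries at 3 of the 39 loci, against 6.46% of all loci, and all above them at 2, against 8.76%. The 3 lower loci were copies of at least 98% identity, and the 2 higher loci, the same as those called by DESeq2, were identical copies. With such copies joined into 15 groups, 1 group was lower in every KO library and 1 was higher, in summed counts not scaled by library. The same share was not taken over all repeat loci with copies joined, so these group numbers are a description.

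The 39 tested loci were mostly copies of one another. Loci of at least 98% identity were joined, which gave 15 groups, 9 of them with several loci and 33 loci in all. Reads from identical copies cannot be told apart, and the counts of each group are given summed, as a description. Loci of a group that are not identical could be high in different libraries. The 5 loci of the group with most counts lie on chromosome 16, 3 of them in introns of NPIPB3, NPIPB4 and NPIPB5, members of the nuclear pore complex interacting protein family, which is spread over segmental duplications. The other 2 are the loci with the highest mean counts, described after these groups. The group had 2268, 485 and 684 counts in WT 1 to WT 3 and 466, 399 and 45.7 in KO. All KO libraries were lower, with KO 1 only narrowly below WT 2. The next group, 4 chromosome 16 loci in NPIPB3, NPIPB4, NPIPB13 and ENSG00000288632, had 942, 2.75 and 1297 counts in WT 1 to WT 3 and 0, 9.09 and 167 in KO. A group of 3 further chromosome 16 loci, in introns of NPIPB3, NPIPB4 and NPIPB5, had 0, 128 and 362 in WT and 377, 624 and 0 in KO. The 3 groups differed in which libraries were high, and all have loci in NPIPB3 and NPIPB4.

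Of the other groups, 9 loci on chromosome 5 and its alternate contigs, of which 2 lie in introns of the β-glucuronidase pseudogenes GUSBP15 and GUSBP17, had 182, 51.9 and 206 counts in WT 1 to WT 3 and 591, 0 and 264 in KO. A group of 2 chromosome 15 loci in GOLGA8A and GOLGA8B, golgin family genes, had 1.00, 180 and 309 counts in WT 1 to WT 3 and 76.7, 63.5 and 49.9 in KO. In 10 of the 15 groups at least 1 library had no count.

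**Figure D3:**
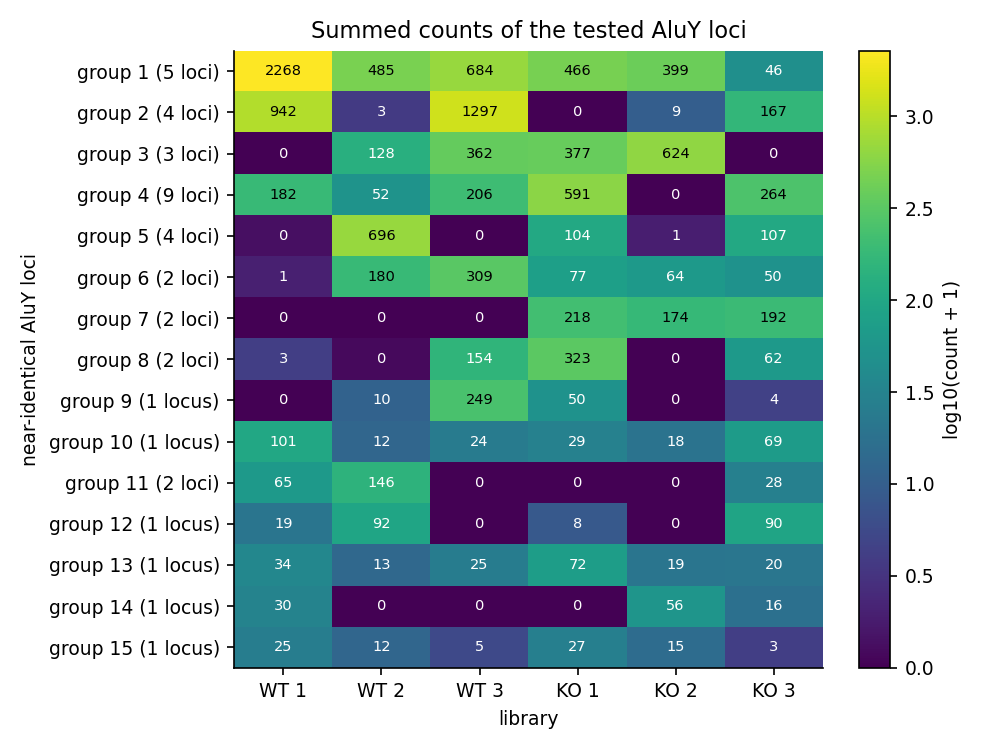
Summed counts of the 39 tested AluY loci, joined into 15 groups of at least 98% identity (rows, by total count), in each of the 3 WT and 3 TET2 KO (KO) libraries (columns). Colour is log10(count + 1) and the printed figure is the count. Group 1 is lower in every KO library, group 7 has counts in KO libraries alone, and the other groups vary by library.

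The 5 loci with the highest mean counts showed the same irregularity. The element at chr16:29525719-29526018, in an intron of the long non-coding RNA ENSG00000288632 and on its strand, had 920, 136 and 16.6 counts in WT 1 to WT 3 and 206, 129 and 13.3 in KO. Its identical copy at chr16:30265703-30266002, which is outside annotated genes and 1551 bp from the pseudogene SMG1P5, had 737, 148 and 15.4 in WT and 257, 155 and 6.05 in KO. Both were high in WT 1 and overlapped between the groups (edgeR adjusted p = 0.909 and 0.957). The element at chr16:21860535-21860841, in an intron of NPIPB4 and on its strand, had 287, 0.40 and 561 counts in WT 1 to WT 3 and 0, 0 and 68.4 in KO, which also overlap (log2 change −3.30 ± 2.88, edgeR adjusted p = 0.843).

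The remaining pair of high loci had nearly all their counts in WT libraries and did not pass the filter. The AluYc element at chr21:22292938-22293054, in an intron of the long non-coding RNA ENSG00000226043, had 61.5, 0 and 789 counts in WT 1 to WT 3 and 0, 0 and 0.70 in KO. The element at chr16:89901936-89902242, in an intron of TCF25, had 843 counts in WT 1 and 0 in the other 5 libraries. All 3 AluY elements of TCF25 with counts had them in WT 1 alone, 1471 in total.

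The AluY loci with the lowest p that were higher in KO were a pair of identical copies, chr15:28957061-28957378 and its counterpart on an alternate contig of chromosome 15. The former lies in an intron of APBA2, which encodes an adaptor protein that binds the amyloid precursor protein, on the opposite strand to the gene. It had 0 counts in each WT library and 105, 139 and 66.5 in KO 1 to KO 3. Both copies together had 218, 175 and 193 counts in KO. The pair was chosen by its low p and passed the filter on low counts through the KO libraries alone, so no fold size is drawn from it. The edgeR adjusted p was 0.202 for each copy. Within 2000 bp of the chromosome 15 element the only other repeat with counts was an L1MB3 element, which also had 0 in each WT library and 209, 139 and 66.5 in KO. In KO 2 and KO 3 the L1MB3 counts equalled those of the AluY element. Whether the same reads were counted for both was not tested, so the L1MB3 element is not taken as a separate observation.

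The third locus in that direction, chr16:88517929-88518218 in introns of ZFPM1 and its antisense gene ZFPM1-AS1, had 34.5, 12.7 and 24.8 counts in WT 1 to WT 3 and 71.8, 19.3 and 19.5 in KO, and its change of 0.92 did not pass the test (edgeR adjusted p = 0.850). ZFPM1 encodes a cofactor of GATA1 in blood cells. The loci with the lowest p that were lower in KO were all chromosome 16 copies. The element at chr16:21877496-21877793, in an intron of NPIPB4, had 191, 95.8 and 343 counts in WT 1 to WT 3 and 0.67, 37.8 and 11.3 in KO, with all KO libraries lower (log2 change −3.05 ± 1.64, edgeR adjusted p = 0.740). Its near-identical copy at chr16:22493372-22493669, in an intron of NPIPB5, had 102, 46.6 and 162 in WT and 2.00, 38.6 and 5.80 in KO, also with all KO libraries lower (adjusted p = 0.768). The element at chr16:29508744-29509050 had 261, 0.20 and 292 in WT and 0, 2.67 and 26.0 in KO, which overlap (adjusted p = 0.767). Repeats within 2000 bp of the element in NPIPB4 had 76.0, 61.4 and 345 counts in WT 1 to WT 3 and 231, 337 and 98.9 in KO, so the groups overlapped there.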

How the data were processed

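M5C-bound caRNA of K-562 cells was analysed in 6 of the 12 libraries of the series, 3 WT and 3 TET2 KO. Per the submitters' processing notes and the study's methods, the authors used Trimmomatic 0.39 for trimming, HISAT2 2.1.0 for alignment to hg38 (with transcripts and spike-ins), Picard for duplicate removal and featureCounts for counting over annotated repeat elements. The deposited values are estimated counts, with fractions: among non-zero AluY values 19.5% were whole and 64.2% under 1. The options that made them are not given in the sources used here. The mouse table was used only to count its rows.

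For DNA, LINE, LTR and SINE elements, counts were summed per subfamily, or taken per locus, and rounded. KO was compared with WT using the edgeR 4.0.16 quasi-likelihood test (R 4.3.3) after filterByExpr, with TMM scaling, a prior count of 2 and Benjamini–Hochberg adjustment over all features, and features with an adjusted p under 0.05 were called. The SE was taken from the log2 change and the F statistic. Shares and ratios were compared on the log2 scale by the exact permutation test over 20 assignments. Subfamilies passing the filter are all named, with the 5 AluY loci of highest mean count and 3 tested loci of lowest p in each direction. The members and lists were chosen with earlier results of these data known. The CpG classes, count classes, chromosome 16 and host-gene values were chosen after seeing the data. CpG counts, motifs and identities came from the hg38 sequence, which is not reported here, and gene context from GENCODE 44, which holds no alternate contigs. Coordinates are 1-based, and 0 Alu elements passed the end of a contig. The methods were tested on simulated data. Alternatives were DESeq2 1.42.0, other scalings, filters and element sets, a replicate block and leaving out each library. Python 3.11.15, pandas 2.3.3, SciPy 1.17.1 and matplotlib 3.10.9 were also used.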

Additional observations from a re-analysis of the deposited data

How the results depend on the processing

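The log2 difference of the AluY share lay between −0.87 and −0.51 under 8 alternatives and between −0.86 and −0.64 with 1 library left out. For the AluY to AluS ratio the ranges were −0.81 to −0.48 and −0.79 to −0.58, and for the AluY to AluJ ratio −1.07 to −0.84 and −1.01 to −0.88, so these 3 results kept their direction in every alternative run. Primary chromosomes only and removal of chromosome 16, chosen after seeing the data, were among them. With the replicate block the exact p of each was 0.25, the smallest possible. Same-numbered libraries did not deviate together (correlations of −0.06, 0.04 and −0.10 over subfamilies), and unlike-numbered libraries gave −0.06 to 0.11. No pairing by number was seen, but 3 libraries per group cannot exclude one. The replicate block left 1 AluY subfamily and 0 AluY loci called.

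The number of AluY subfamilies called was 0 with library totals, without the 10 highest AluY elements and without elements with over 90% of counts in 1 library, and 0 to 0 over the 6 fits that left out a library. It stayed at 1 in the other 6. The number of AluY loci called was 2 with the DESeq2 Wald test, identical copies with counts in KO libraries alone, and 0 otherwise. The CpG-rich share ranged from −0.072, without WT 3, to 0.17 with 1 library left out. Among fitted changes of subfamilies that were not called, the sign turned with 1 library left out for AluYb8 (−0.79 to 0.43), AluYb9 (−1.08 to 0.14), AluYc3 (−0.19 to 0.53), AluYc (−1.42 to 0.20), AluYe6 (−1.76 to 0.96), AluYg6 (−3.18 to 1.10), AluYh3 (−0.94 to 2.30) and AluYk11 (−2.72 to 1.60). It also turned for AluYc without the 10 highest AluY elements (0.51), for AluYk11 with the replicate block (−0.87) and without elements with over 90% of counts in 1 library (−1.24), and for AluYk4 in the latter (0.12). With 1 library left out the loci at chr16:29525719 and chr16:30265703 ranged from −1.75 to 0.75 and from −1.25 to 0.92, and with library totals the change of chr16:88517929 was −0.016. The causes were not tested. At these depths few loci had counts in all libraries, which limits any statement on single elements.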

Other observations

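AluY counts in TAF15, a gene for an RNA-binding protein, were high in other libraries than those of NPIPB4. Its 8 AluY elements with counts had 113, 118 and 1.2 counts in WT 1 to WT 3 and 1.87, 104 and 463 in KO. The 2 AluY elements of AK6, a gene for an adenylate kinase, had 610 counts in WT 2 and 0 in the other 5 libraries. These genes were chosen after their values were seen, and no test was made.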
